A study of Mus musculus with 11 samples.

Results

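The genes described here encode the integrin subunits, laminin chains and collagen chains of the mouse, together with fibronectin (Fn1) and Sparc. They were taken by gene symbol. Symbols beginning with Itga or Itgb, with Lama, Lamb or Lamc and a digit, or with Col and a chain number were matched, and 87 of 55416 gene identifiers in the deposited table fitted. The matches were 25 integrin subunit genes, 11 laminin genes, 44 collagen genes, Fn1 and Sparc, and 5 genes whose symbols begin like those of integrins although they are not among the classical subunits (Itgb1bp1, Itgb1bp2, Itgb3bp, Itgbl1 and Itgb2l). Polyadenylated RNA was sequenced from EC4, a line of mouse liver cancer cells. The labels name the genotype MYC on, called MYC high here, or MYC off, called MYC low here, and how MYC was switched is not given in the sources used here. All cells were grown in DMEM with 200 µM methionine and then kept for 24 h in DMEM with 200 µM or 10 µM methionine. The MYC high group at 200 µM has 2 libraries, replicates 2 and 3 (replicate 1 is not analysed here), and each of the other 3 groups has 3. All groups are 1 cell line, and nothing in the labels says that replicates were separate cultures, so p-values measure only the spread between these libraries.

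Integrins are cell surface receptors made of an α and a β subunit, and each pair binds its own set of matrix proteins and links them to the actin skeleton. Laminins are trimers of an α, a β and a γ chain and form, with type IV collagen, the basement membrane on which epithelial cells rest. Collagens are trimers of α chains, either of 1 gene or of several, and include fibril-forming, network-forming, fibril-associated and membrane-bound types. In the healthy liver hepatocytes make fibronectin and little basement membrane, while in liver fibrosis and cancer the matrix is remodelled and most of it is made by stellate cells and fibroblasts.

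Libraries totalled 10858936 to 13085689 gene reads, and the 12909 genes whose mean over the 11 libraries reached 10 normalized counts were tested. Myc, the gene that names the groups, had 2014 to 2164 normalized counts in the MYC high and 1106 to 1168 in the MYC low cells at 200 µM, but 291 to 366 in the MYC high and 320.0 to 344 in the MYC low cells at 10 µM. Its level thus separated the labels at 200 µM and did not separate them at 10 µM, so the directions given for MYC at 10 µM rest on the labels alone, and transcripts of a MYC transgene from another species would be counted only in part. Although the labels give liver as the tissue, none of 10 hepatocyte markers reached the test and Alb had no read in any library. The endothelial list, with none tested, summed to under 10 normalized counts in every library. Of 5 epithelial markers the keratins Krt8 and Krt18 were tested, while Epcam and Cldn6 had no read. Ptprc, Cd3e, Nkg7 and Clec4f of the 10 leukocyte markers, and Thy1, Lum, Dcn, Postn, Rgs5 and Lrat of the 13 fibroblast and stellate cell markers, had no read. The leukocyte list, of which Csf1r and Cd68 were tested, summed to 263 to 286 in the MYC high and 482 to 534 in the MYC low cells at 200 µM, and to 873 to 908 and 931 to 974 at 10 µM. The fibroblast list, of which Vim and Tagln were tested, summed to 15815 to 16144 and 24649.6 to 25226 at 200 µM, and to 35997 to 38028 and 33267 to 33585 at 10 µM. Nearly all of it was Vim, since Tagln had group means of 9.14 to 37.8. The 4 listed cholangiocyte genes, Krt7, Krt19, Sox9 and Spp1, were all tested and summed to 5534 to 5617 and 20195 to 20534 at 200 µM, and to 18456 to 19689.7 and 35242 to 35849 at 10 µM. Most of this sum was Spp1 and Krt19, which rose at 10 µM in both MYC states, as did Krt7. Sox9 fell, from group means of 150.2 and 199.2 to 43.0 and 119.7 in MYC high and MYC low cells. Krt19 at 10 µM was higher in MYC high cells, at 12021 against 11026. The summed lists moved with the groups, and their part in the results below was not tested. In bulk RNA, fewer cells of a type and less RNA per cell cannot be told apart.

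Of the 87 genes, 75 had a read in at least 1 library and 37 passed the filter for testing. Among integrin subunits 23 of 25 were detected and 12 tested, among laminins 9 of 11 and 7, and among collagens 38 of 44 and 14. Fn1 and Sparc were both tested, as were Itgb1bp1 and Itgb3bp. A total of 12 genes had no read in any library, namely Col3a1, Col5a2, Col9a1, Col11a1, Col14a1, Col23a1, Itgax, Itgb8, Lama1, Lama4, Itgb2l and Itgbl1. Of the 50 genes not tested, 35 had a mean under 1 normalized count. The highest of them was Col1a1, a chain of the main fibrillar collagen, at 9.01 normalized counts over all libraries. Col1a1 reached 4.57 and 1.06 in the MYC high and 6.83, 8.19 and 1.94 in the MYC low cells at 200 µM. At 10 µM Col1a1 reached 12.2, 19.2 and 24.3 in the MYC high and 7.23, 4.74 and 8.82 in the MYC low cells. The other chain of that collagen, Col1a2, and the fibrillar Col3a1 were at 1.67 and 0. Some of the 37 tested genes passed the filter although their mean was under 10 in at least 1 group. The groups in which these genes are high helped them to pass. Col15a1 lay below a mean of 10 in 2 groups, and Col9a3, Itgb2, Itgb6 and Lamb3 in 1 group each.

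Over the whole families, integrin, collagen and, by a smaller step, laminin transcripts were more abundant in MYC low than in MYC high cells in both media. Low methionine moved the families in different ways. The levels of a family were summed per kb of exon, so that long and short genes could be added. Integrin subunits summed to 3081 to 3094 normalized counts per kb in the MYC high and 4964 to 5028 in the MYC low cells at 200 µM, and to 2683 to 2761 and 4643 to 4722 at 10 µM. Collagens summed to 3310.5 to 3327 and 6030.3 to 6100.2 at 200 µM, and to 4129 to 4291 and 6951 to 7049.6 at 10 µM. Laminins spanned less, from 953 to 1026 and 1179 to 1262 at 200 µM to 1135 to 1162 and 1252 to 1269 at 10 µM, and their 2 MYC low groups overlapped. The integrin sum was thus lower at 10 µM than at 200 µM in both MYC states, while the collagen sum was higher at 10 µM in both. A few genes carry these sums. Itgb1 and Itga3 among integrins, Col4a1, Col4a2 and Col18a1 among collagens, and Lama5, Lamc1 and Lamb2 among laminins had the highest levels per kb of their families. Of the 37 tested genes, 17 had their highest group mean in the MYC low cells at 10 µM. The lowest mean was in the MYC high cells at 200 µM for 16 and in those at 10 µM for 12. The same shares over all tested genes were not computed, so these counts are not read as a trait of the members. Col15a1 and Itgb2, which are among the 17, had means over all libraries of 12.9 and 16.2, near the filter of 10. For Col12a1, Itga6 and Lamb3, also among the 17, the 2 highest groups overlapped.

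Single genes were compared with limma on log2 of the normalized count plus 1, a scale that understates changes of low values. Differences are given as log2 with the standard error (SE) and the p-value adjusted over all 12909 genes by the Benjamini-Hochberg method, and a gene is called at an adjusted p under 0.05. At 200 µM methionine, 24 of the 37 tested genes were lower in MYC high than in MYC low cells, 6 were higher and 7 were not called. Lower members were a larger share than among all genes, since in the whole test 74.4% were called, 37.6% lower and 36.8% higher. With a difference of at least 2-fold, 13 members were lower and 2 higher, against 12.1% and 6.79% of all genes. By family, 10 of 12 integrin subunits were lower and 1 higher, with a median difference of −0.75. Of 7 laminins 4 were lower and 2 higher, with a median of −0.22, and of 14 collagens 8 were lower and 2 higher, with a median of −0.53. The median over all tested genes was −0.0031. At 10 µM, 24 members were lower in MYC high cells, 10 were higher and 3 were not called, while 71.5% of all genes were called, 35.8% lower and 35.7% higher. Past 2-fold, 10 members were lower and 4 higher, against 7.92% and 6.41% of all genes. The split was 9 lower and 2 higher among integrins (median −0.59), 4 and 3 among laminins (−0.30), and 9 and 4 among collagens (−0.78). The median over all genes at 10 µM was 0.0015. All comparisons use the same 4 groups and share libraries in pairs, so their differences are set side by side and are not independent of each other.

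**Figure D1:**
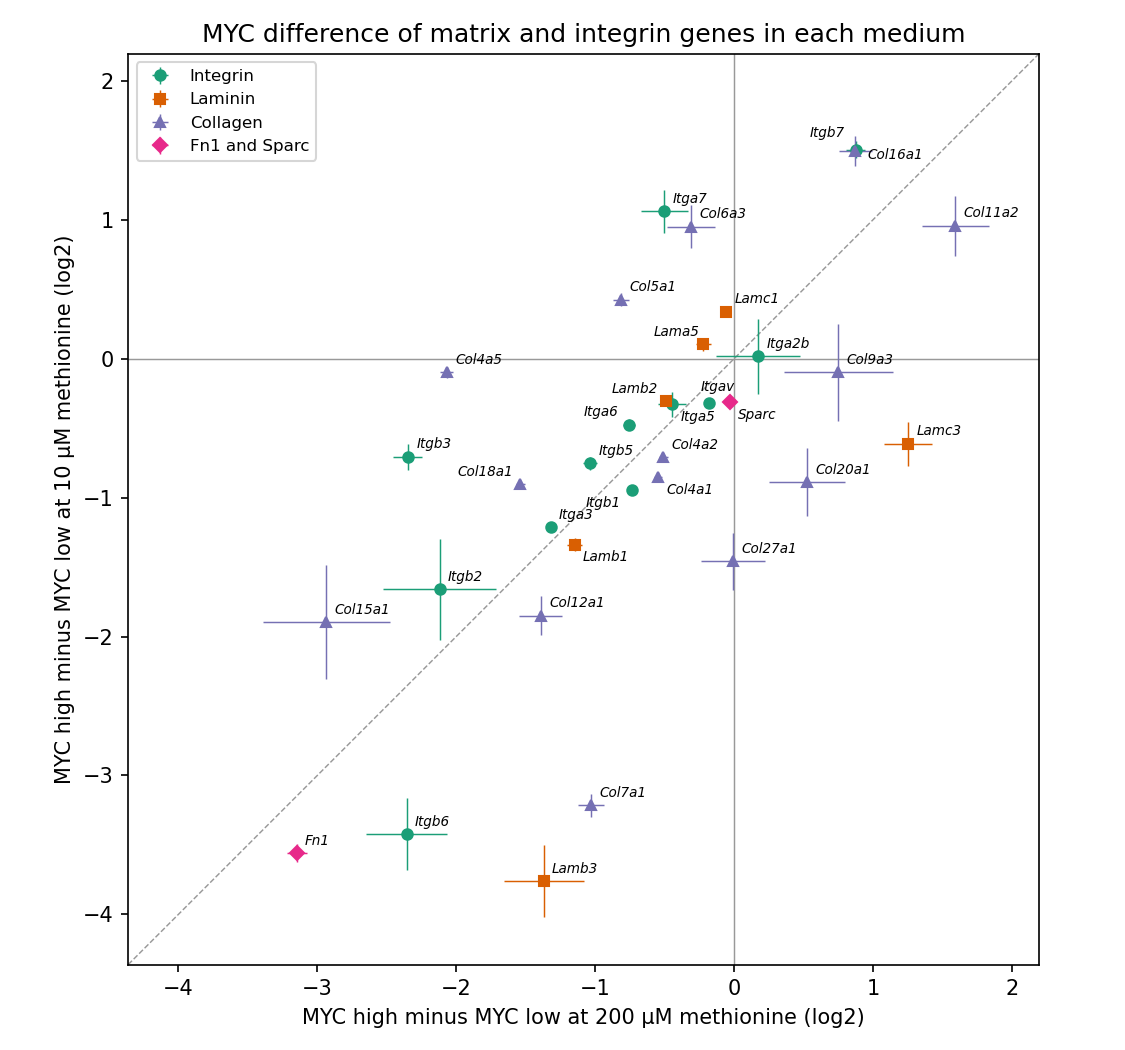
MYC high minus MYC low at 200 µM (horizontal axis) against the same difference at 10 µM methionine (vertical axis), both in log2, for 34 of the tested integrin, laminin and collagen genes, Fn1 and Sparc included; bars are standard errors from limma and the dashed line marks equal differences. Most points lie in the lower left, with Fn1, Itgb6, Col15a1, Itgb2 and Itga3 below 0 on both axes, whereas Itgb7, Col16a1 and Col11a2 lie above 0 on both and Col5a1 and Itga7 lie on opposite sides of 0 in the 2 media.

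In MYC low cells more members were higher than lower at 10 µM, while in MYC high cells the split was nearer to even. In MYC high cells 17 of 37 members were higher at 10 µM than at 200 µM, 13 were lower and 7 were not called, where 75.8% of all genes were called, 37.9% in each direction. Past 2-fold, 8 members rose and 6 fell, against 13% and 9.18% of all genes. In MYC low cells 18 were higher, 9 lower and 10 not called, where 59.4% of all genes were called, 29.4% higher and 29.9% lower. Past 2-fold, 7 members rose and 3 fell, against 3.39% and 2.17%. Among collagens in MYC low cells 9 of 14 rose and 2 fell, with a median of 0.41, and in MYC high cells 6 rose and 5 fell, with a median of −0.02. Integrins rose and fell in near equal numbers, 4 and 4 of 12 in the MYC high and 3 and 5 in MYC low cells. Of 7 laminins 5 rose and 2 fell in MYC high cells, and 3 rose and 1 fell in MYC low cells. The response itself differed between the MYC states for 29 of the 37 members by the interaction term, which is the response of MYC high cells minus that of MYC low cells. It was positive for 14 and negative for 15, and 60.4% of all genes were called, 31% positive and 29.4% negative. Past 2-fold, 6 were positive and 6 negative, against 8.09% and 4.75% of all genes.

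**Figure D2:**
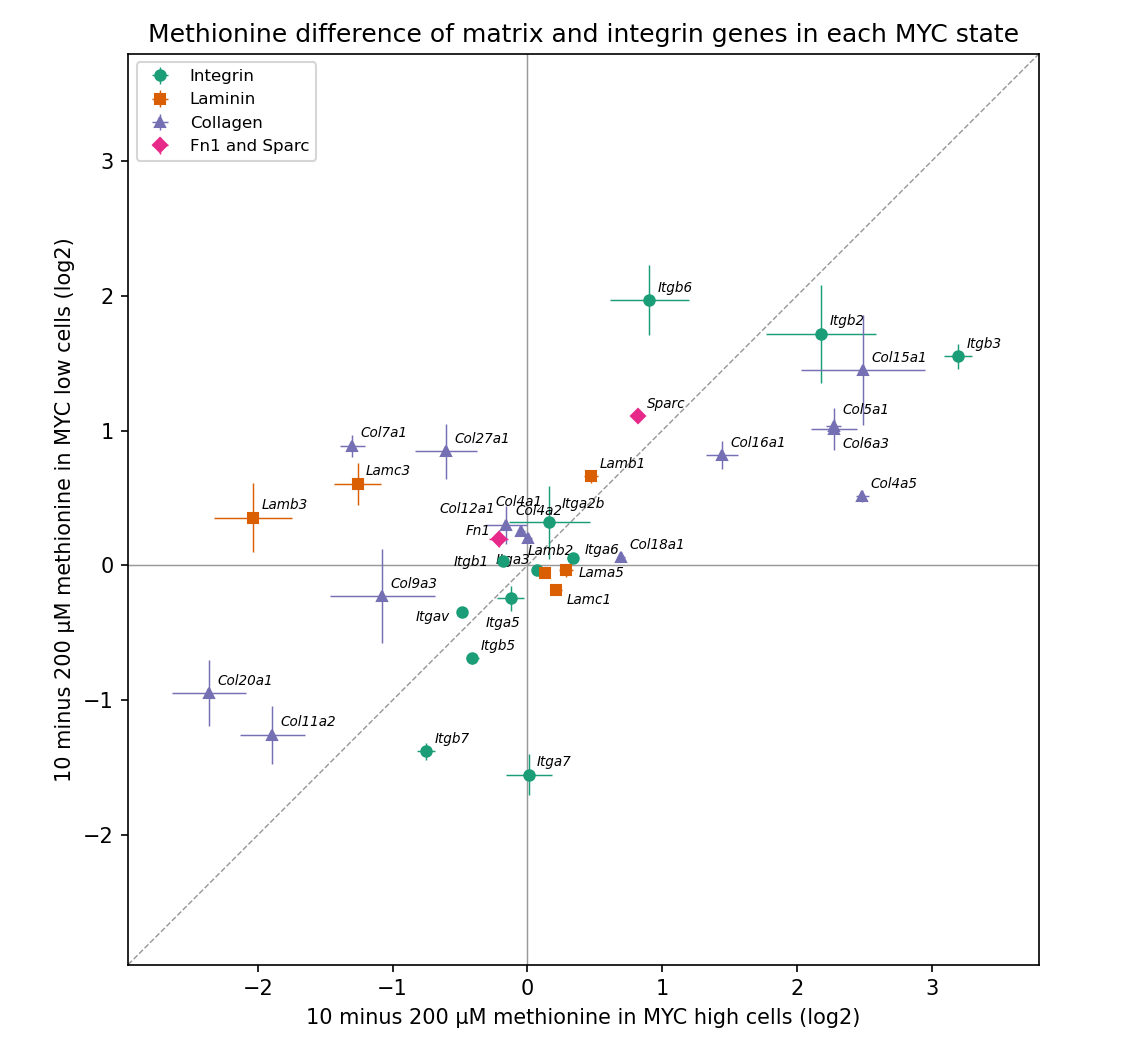
Difference of 10 minus 200 µM methionine in MYC high cells (horizontal axis) against the same difference in MYC low cells (vertical axis), both in log2, for the same 34 genes; bars are standard errors from limma and the dashed line marks equal responses. Itgb3, Col5a1, Col6a3, Col15a1 and Itgb2 lie above 0 on both axes, Col7a1, Col27a1 and Lamc3 lie to the left of 0 and above it, and Itga7 lies near 0 in MYC high cells and at the bottom in MYC low cells.

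Upstream sequence was read for the members from RefSeq tables of the mouse build GRCm38.p6, which precedes the build of the deposited counts and is used here only for the sequences and their places. Of the 37 tested genes 27 had an entry, with 31 annotated starts between them, and the 250 bases before each start were searched on both strands. The MYC-type E-box CACGTG was in 0 of the 31 windows and in 6.02% of all 32851 windows of that length. The AP-1 motif TGANTCA was in 0 of 31 and in 6.75% of all. The GC box GGGCGG was in 15 of 31 windows (48.4%), against 32.7% of all, the CCAAT box CCAAT in 8 (25.8%), against 33.8%, and the TATA box TATAAA in 1 (3.23%), against 12.4%. These are counts of letters in short windows and say nothing on whether a factor binds. Some of the 31 windows lie in annotated exons, those of Col4a1, Col4a2 and Col20a1 over all 250 bases. Windows of 4 genes without such overlap are printed as examples. The genes are Itgb1, the most abundant β subunit per kb, Col5a1 and Col6a3, which rose at 10 µM in both MYC states, and Col7a1, which fell in 1 state and rose in the other. No result rests on these windows. The printed windows lie at chr8:128685404-128685653 (+ strand), chr2:27886175-27886424 (+ strand), chr1:90843972-90844221 (- strand) and chr9:108953336-108953585 (+ strand). They are written 5′ to 3′ on the strand of the gene, ending at the base before the start. Capitals mark the GC boxes in either orientation and, in Col7a1, a CCAAT box read on the other strand.
Itgb1: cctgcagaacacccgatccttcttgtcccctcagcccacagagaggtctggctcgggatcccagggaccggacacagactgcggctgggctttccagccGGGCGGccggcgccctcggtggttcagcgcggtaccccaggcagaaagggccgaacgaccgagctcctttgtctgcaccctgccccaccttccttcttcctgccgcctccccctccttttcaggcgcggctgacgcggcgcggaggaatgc
Col5a1: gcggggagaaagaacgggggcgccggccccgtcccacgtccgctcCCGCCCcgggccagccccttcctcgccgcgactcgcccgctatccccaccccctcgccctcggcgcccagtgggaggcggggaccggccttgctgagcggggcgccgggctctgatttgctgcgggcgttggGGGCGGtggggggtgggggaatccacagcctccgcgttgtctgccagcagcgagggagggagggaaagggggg
Col6a3: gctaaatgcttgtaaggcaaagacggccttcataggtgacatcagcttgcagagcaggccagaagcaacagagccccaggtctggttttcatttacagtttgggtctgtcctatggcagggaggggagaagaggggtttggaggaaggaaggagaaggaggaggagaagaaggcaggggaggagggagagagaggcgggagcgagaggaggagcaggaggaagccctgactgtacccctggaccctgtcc
Col7a1: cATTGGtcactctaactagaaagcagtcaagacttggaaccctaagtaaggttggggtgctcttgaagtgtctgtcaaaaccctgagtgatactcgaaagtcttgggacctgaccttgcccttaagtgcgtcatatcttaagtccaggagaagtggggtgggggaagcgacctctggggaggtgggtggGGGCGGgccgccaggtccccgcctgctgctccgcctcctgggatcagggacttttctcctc
The window of Col5a1 is 76.4% G and C, with GC boxes at −205 to −200 and −73 to −68 from the start. The window of Col6a3 has none of the 5 motifs and 57.2% G and C. Col7a1 has its GC box at −61 to −56, and Itgb1 at −151 to −146.

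Among the integrins, the β1 subunit and its laminin-binding partner α3 were the most abundant and were lower in MYC high cells in both media. Itgb1, the β subunit shared by most receptors for laminin, collagen and fibronectin, took 64.4% to 65.4% of all β subunit transcripts per kb in the MYC high and 73.3% to 74.3% in the MYC low cells at 200 µM, and 68.6% to 69.7% and 80.8% to 81.4% at 10 µM. Itgb1 stood at 4997 and 5297 normalized counts in the MYC high and 8479, 8534 and 8702 in the MYC low cells at 200 µM. At 10 µM Itgb1 stood at 4650.4, 4446 and 4533 in the MYC high and 8718, 8791 and 8744 in the MYC low cells. The MYC low libraries lay well above all MYC high libraries, whatever the medium. Between the MYC states the difference was −0.74 (SE 0.0328, adjusted p = 2.23e-21) at 200 µM and −0.95 (SE 0.0293, adjusted p = 1.91e-26) at 10 µM. Itgb1 was lower at 10 than at 200 µM in MYC high cells, with a difference of −0.18 (SE 0.0328, adjusted p = 7.15e-06), and its response was not called in MYC low cells, at 0.03 (SE 0.0293, adjusted p = 0.391). Itga3 had 3343 and 3008 normalized counts in the MYC high and 8055, 7775 and 7932 in the MYC low cells at 200 µM. At 10 µM Itga3 had 3373, 3333 and 3307 in the MYC high and 7653, 7944 and 7622 in the MYC low cells. Itga3 pairs with β1 and binds the laminins of the epithelial basement membrane. Its MYC low libraries stood clear of its MYC high libraries in both media, with differences of −1.32 (SE 0.0367, adjusted p = 1.07e-27) and −1.21 (SE 0.0329, adjusted p = 2.57e-28). The response of Itga3 to methionine was not called in either state, at 0.07 (adjusted p = 0.0674) and −0.03 (adjusted p = 0.391), although without replicate 2 of MYC high cells at 200 µM the value for MYC high cells was 0.15 (adjusted p = 0.00142) and with edgeR it was 0.09 (adjusted p = 0.0324). The ratio of Itga3 to Itgb1 per kb was 0.406 to 0.478 in the MYC high and 0.651 to 0.679 in the MYC low cells at 200 µM, and 0.518 to 0.536 and 0.623 to 0.646 at 10 µM, so the α3 transcript differed more than the β1 transcript.

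**Figure D3:**
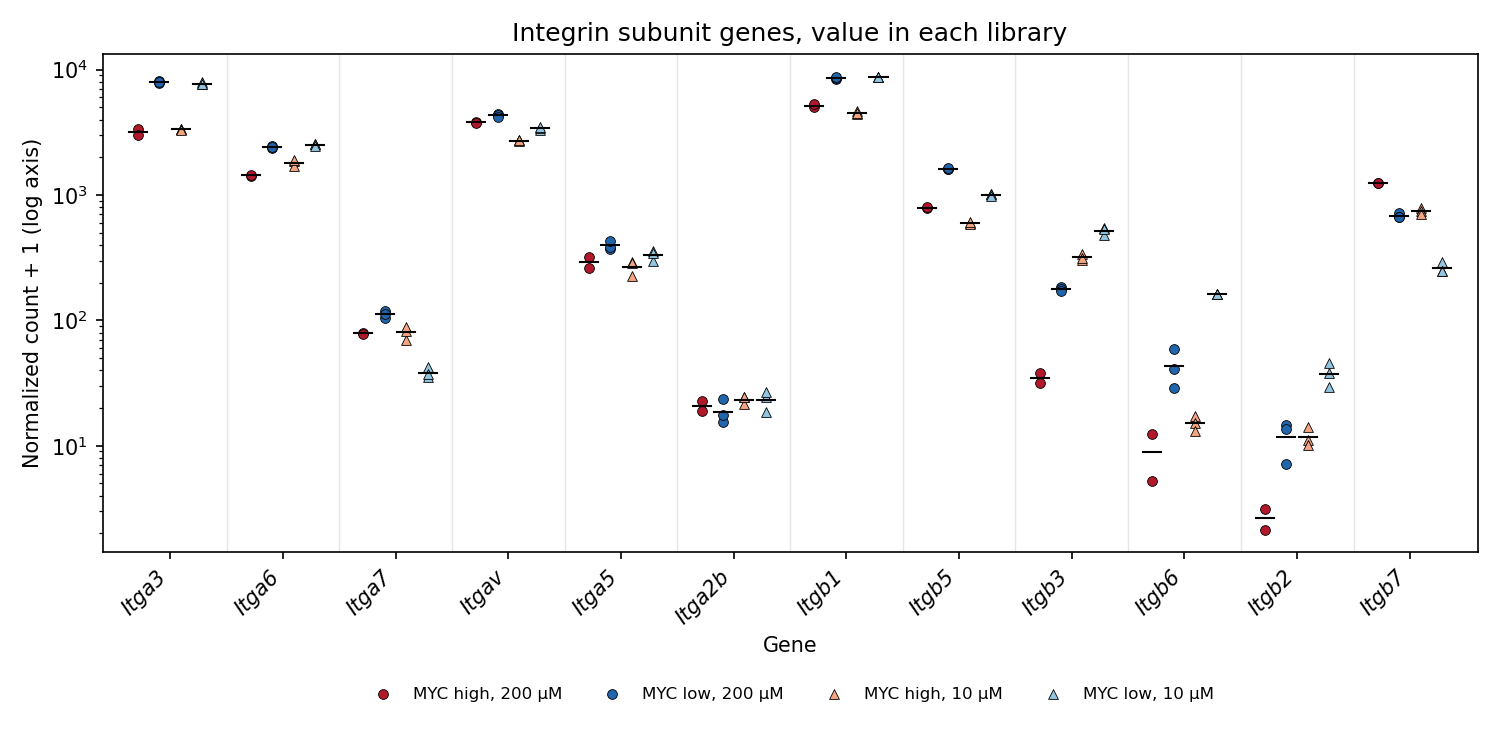
Normalized count plus 1 on a log axis for the 12 tested integrin subunit genes in each of the 11 libraries; circles are 200 µM and triangles 10 µM methionine, red shades MYC high and blue shades MYC low, and short lines mark group means. Itga3 and Itgb1 are higher in MYC low cells in both media, Itgb3 ranges from 30.8 in the lowest library to 539.8 in the highest, and Itgb7 runs the other way, from 1256 in the MYC high cells at 200 µM to 246 in the MYC low cells at 10 µM.

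The other laminin-binding α subunits behaved differently from each other. Itga6, which binds laminin with β1 or β4, had 1420.2–1454 normalized counts in the MYC high and 2375–2477 in the MYC low cells at 200 µM, and 1689–1895 and 2459–2559 at 10 µM. It was lower in MYC high cells, at −0.76 (SE 0.0439, adjusted p = 6.49e-18) at 200 µM and −0.48 (SE 0.0393, adjusted p = 1.79e-13) at 10 µM, and it rose at 10 µM in MYC high cells, by 0.33 (SE 0.0439, adjusted p = 1.4e-08). Its usual epithelial partner Itgb4, which anchors hemidesmosomes, had 4.45 normalized counts over all libraries and was not tested. Itga7 showed 78.8 and 77.4 normalized counts in the MYC high and 118, 103 and 112 in the MYC low cells at 200 µM. At 10 µM Itga7 showed 68.3, 81.0 and 88.1 in the MYC high and 41.6, 34.2 and 36.2 in the MYC low cells. Itga7 is the laminin receptor subunit best known from muscle. The MYC low libraries were the highest at 200 µM and the lowest at 10 µM, and the MYC high libraries overlapped between media. The MYC difference accordingly had opposite signs, −0.50 (SE 0.172, adjusted p = 0.00893) at 200 µM and 1.06 (SE 0.153, adjusted p = 1.21e-07) at 10 µM, with an interaction of 1.56 (SE 0.230, adjusted p = 3.01e-07). The methionine response was −1.55 (SE 0.153, adjusted p = 4.16e-11) in MYC low and 0.01 (adjusted p = 0.96) in MYC high cells. Itga7 shares 9 exon bases with the antisense gene Mettl7b, whose mean count was 5.10 times as high, and the strand setting of the counts is not given. The collagen receptor subunits Itga1, Itga2, Itga10 and Itga11 were all below the filter, at means of 0.177, 0.0802, 6.76 and 0.272.

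The αv subunit and its β partners bind fibronectin, vitronectin and latent TGF-β, and they separated into genes that fell and genes that rose in low methionine. Itgav itself fell in both states, with a difference of −0.49 (SE 0.0355, adjusted p = 4.75e-15) in the MYC high and −0.35 (SE 0.0318, adjusted p = 5.6e-12) in MYC low cells, from 3780.0–3829.8 to 2683–2739 and from 4213–4394 to 3305–3460.3. Itgb5, the vitronectin-binding partner, fell too. Itgb5 stood at 781 and 803 normalized counts in the MYC high and 1619, 1615 and 1639 in the MYC low cells at 200 µM. At 10 µM Itgb5 stood at 598, 584 and 608 in the MYC high and 1014, 1019.9 and 985 in the MYC low cells. Its MYC low libraries were above its MYC high libraries in each medium, with differences of −1.04 (SE 0.0493, adjusted p = 1.66e-20) and −0.75 (SE 0.0441, adjusted p = 8.87e-18), and its response was −0.41 in the MYC high and −0.69 in MYC low cells (adjusted p = 2.19e-09 and 3.17e-16). Itgb3 stood at 30.8 and 37.1 normalized counts in the MYC high and 184, 176 and 169 in the MYC low cells at 200 µM. At 10 µM Itgb3 stood at 304, 338 and 313 in the MYC high and 480.0, 539.8 and 539 in the MYC low cells. Itgb3, which with αv binds fibronectin, vitronectin and osteopontin, had groups that ascended without overlap from MYC high cells at 200 µM to MYC low cells at 200 µM, MYC high cells at 10 µM and MYC low cells at 10 µM. It rose by 3.19 (SE 0.105, adjusted p = 1.22e-25) in the MYC high and 1.55 (SE 0.0936, adjusted p = 6.29e-17) in MYC low cells. The MYC difference was −2.35 (SE 0.105, adjusted p = 2.25e-21) at 200 µM and −0.70 (SE 0.0936, adjusted p = 2.14e-08) at 10 µM. Per kb, the ratio of Itgb3 to Itgb5 was 0.0238 to 0.0278 in the MYC high and 0.0622 to 0.0685 in the MYC low cells at 200 µM, and 0.306 to 0.349 and 0.285 to 0.329 at 10 µM.

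Itgb6, an epithelial partner of αv that activates TGF-β, had low counts. Itgb6 had 11.4 and 4.24 normalized counts in the MYC high and 40.0, 58.3 and 28.1 in the MYC low cells at 200 µM. At 10 µM Itgb6 had 16.3, 14.2 and 12.2 in the MYC high and 161, 160.3 and 161 in the MYC low cells. The MYC low libraries at 10 µM lay close together and stood far above the rest, while the 2 MYC high libraries at 200 µM differed from each other. MYC high cells differed from MYC low cells by −2.36 (SE 0.293, adjusted p = 4.46e-09) at 200 µM, and ran from −2.98 without replicate 2 to −1.73 without replicate 3 of MYC high cells at 200 µM. At 10 µM it was −3.42 (SE 0.262, adjusted p = 2.13e-14). In MYC low cells Itgb6 rose at 10 µM by 1.97 (SE 0.262, adjusted p = 3.67e-08). The rise in MYC high cells, 0.90 (SE 0.293, adjusted p = 0.00569), was 0.28 (adjusted p = 0.414) without replicate 3 and 1.53 without replicate 2 of MYC high cells at 200 µM, and missed the threshold with edgeR, at 0.89 (adjusted p = 0.0774), and with DESeq2, at 0.88 (adjusted p = 0.0901). The remaining αv partner, Itgb8, had no read.

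Itga5, which with β1 is the main fibronectin receptor, differed less than its ligand. It had 318 and 262 normalized counts in the MYC high and 367, 387 and 431 in the MYC low cells at 200 µM, and 226, 289 and 284 and 359.8, 295 and 346 at 10 µM. The difference was −0.45 (SE 0.102, adjusted p = 0.000175) and −0.33 (SE 0.0911, adjusted p = 0.00167). Its fall at 10 µM in MYC low cells, −0.24 (SE 0.0911, adjusted p = 0.0204), became −0.18 (adjusted p = 0.133) without replicate 3 of MYC low cells at 200 µM and −0.16 (adjusted p = 0.177) without replicate 2 of MYC low cells at 10 µM. Itga4, Itga8 and Itga9, which also pair with β1, were at 0.0886, 1.12 and 0.0926 normalized counts.

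Subunits known from blood cells were present in part and moved in opposite directions. Itgb7 stood at 1244 and 1256 normalized counts in the MYC high and 713, 667 and 663 in the MYC low cells at 200 µM. At 10 µM Itgb7 stood at 783, 745 and 701 in the MYC high and 290.2, 249 and 246 in the MYC low cells. Itgb7, which on lymphocytes pairs with α4 or αE, ran against most of the family, highest in the MYC high cells at 200 µM and lowest in the MYC low cells at 10 µM. It was higher in MYC high cells by 0.88 (SE 0.0681, adjusted p = 3.09e-14) and 1.51 (SE 0.0609, adjusted p = 9.13e-23) and fell at 10 µM, with a difference of −0.75 (SE 0.0681, adjusted p = 1.84e-12) in the MYC high and −1.38 (SE 0.0609, adjusted p = 5.69e-21) in MYC low cells. Per kb Itgb7 took 22.8% to 23.6% of β subunit transcripts in the MYC high group at 200 µM and 3.37% to 3.96% in the MYC low group at 10 µM. Neither partner was near it. Itga4 had 1 read in all 11 libraries together, and Itgae, which encodes αE, had a mean of 3.10 normalized counts, while the leukocyte genes Ptprc and Cd3e had no read.

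Itgb2, the β subunit of leukocytes, was near the limit of the counts in MYC high cells. Itgb2 gave 1.14 and 2.12 normalized counts in the MYC high and 13.7, 6.14 and 12.6 in the MYC low cells at 200 µM. At 10 µM Itgb2 gave 10.2, 13.2 and 9.11 in the MYC high and 37.1, 44.6 and 28.2 in the MYC low cells. The MYC low libraries at 10 µM were the highest and the MYC high libraries at 200 µM, with 3 reads between them, the lowest. The ratio of pooled reads was 6.59 (2.07 to 33.6) for MYC low over MYC high cells at 200 µM and 6.56 (2.05 to 33.5) for 10 over 200 µM in MYC high cells, with exact 95% intervals for counting error. At 10 µM the MYC difference was −1.66 (SE 0.363, adjusted p = 0.00011), and in MYC low cells the rise was 1.72 (SE 0.363, adjusted p = 9.8e-05). Its α partners Itgal, Itgam and Itgax were at 0.353, 0.0802 and 0. The 2 tested leukocyte markers did not share an order. Csf1r had group means of 246 and 420.5 normalized counts in MYC high and MYC low cells at 200 µM and 435 and 744 at 10 µM, with its highest mean in the same group as Itgb2. Cd68 had 28.2 and 88.9 at 200 µM and 454 and 204 at 10 µM, with its highest mean in the MYC high cells at 10 µM. Itga2b, the platelet subunit that pairs with β3, had 18.0–21.7, 14.3–22.4, 20.4–23.3 and 17.6–25.6 normalized counts in the 4 groups, and none of its comparisons was called, with adjusted p of 0.317 to 0.958.

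Among the chains of the widespread laminin trimers, Lamb1 differed most between the groups and Lama5 and Lamc1 least. Per kb, Lama5, the α chain of the common basement membrane laminins, Lamc1, the γ chain shared by most laminins, and Lamb2 had similar means over the libraries of 347, 316 and 316 normalized counts per kb. Lamb1 stood at 663 and 605 normalized counts in the MYC high and 1444, 1404 and 1362 in the MYC low cells at 200 µM. At 10 µM Lamb1 stood at 911, 800.0 and 929 in the MYC high and 2249.9, 2185 and 2227 in the MYC low cells. The MYC low libraries lay above the MYC high libraries in both media, and within each state the 10 µM libraries were the higher. The MYC difference of Lamb1 was −1.15 (SE 0.0541, adjusted p = 1.22e-20) and −1.34 (SE 0.0484, adjusted p = 2.56e-24), and its rise at 10 µM was 0.47 (SE 0.0541, adjusted p = 6.74e-10) in the MYC high and 0.66 (SE 0.0484, adjusted p = 1.46e-14) in MYC low cells. Lamb2, the alternative β chain, spanned 1533–1594 and 2132–2250.3 at 200 µM and 1682–1738 and 2096–2124 at 10 µM. It was lower in MYC high cells, with a difference of −0.49 (SE 0.0407, adjusted p = 1.92e-13) and −0.30 (SE 0.0364, adjusted p = 2.2e-09). Its response of 0.13 (SE 0.0407, adjusted p = 0.00532) in MYC high cells was 0.10 (adjusted p = 0.0802) without replicate 3 of MYC high cells at 200 µM. The ratio of Lamb1 to Lamb2 per kb was 0.242 to 0.255 in the MYC high and 0.378 to 0.404 in the MYC low cells at 200 µM, and 0.288 to 0.332 and 0.637 to 0.652 at 10 µM.

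Lamc1 had 2509–2546 and 2553–2709 normalized counts at 200 µM and 2889–3025 and 2313–2327 at 10 µM in the MYC high and MYC low cells. It rose at 10 µM in MYC high cells by 0.22 (SE 0.0382, adjusted p = 4.31e-06) and fell in MYC low cells, with a difference of −0.18 (SE 0.0341, adjusted p = 2.3e-05), so that the MYC difference was 0.34 (SE 0.0341, adjusted p = 3.66e-11) at 10 µM and not called at 200 µM (−0.06, adjusted p = 0.174). For Lama5 the libraries of the groups lay close together. Lama5 had 3803 and 3136 normalized counts in the MYC high and 4334, 4017 and 3750.2 in the MYC low cells at 200 µM. At 10 µM Lama5 had 4434, 4155 and 4074 in the MYC high and 3945, 3876 and 3954 in the MYC low cells. The MYC difference at 200 µM, −0.22 (SE 0.0519, adjusted p = 0.000253), was −0.08 (adjusted p = 0.172) without replicate 3 of MYC high cells at 200 µM, which was the lowest library. That at 10 µM, 0.10 (SE 0.0465, adjusted p = 0.0441), lost its call without any 1 of 5 libraries: replicate 1 of MYC high cells at 10 µM, replicate 2 of MYC low cells at 200 µM or any of the 3 of MYC low cells at 10 µM, with adjusted p of 0.0579 to 0.242, and with DESeq2, at 0.11 (adjusted p = 0.216). The rise of Lama5 at 10 µM in MYC high cells was 0.29 (SE 0.0519, adjusted p = 5.7e-06).

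Lamb3 is the β chain of the laminin that anchors epithelia to the basement membrane. Lamb3 had 32.0 and 25.5 normalized counts in the MYC high and 51.7, 92.1 and 90.0 in the MYC low cells at 200 µM. At 10 µM Lamb3 had 5.09, 4.05 and 11.1 in the MYC high and 93.1, 90.1 and 108 in the MYC low cells. In MYC high cells at 10 µM Lamb3 was the lowest, and the 2 MYC low groups overlapped. The MYC difference was −1.37 (SE 0.288, adjusted p = 6.14e-05) at 200 µM and −3.76 (SE 0.258, adjusted p = 9.22e-16) at 10 µM. Lamb3 fell at 10 µM in MYC high cells, with a difference of −2.04 (SE 0.288, adjusted p = 6.84e-08), and its response was not called in MYC low cells, at 0.35 (SE 0.258, adjusted p = 0.241). The α chain of that laminin, Lama3, had 1.06 normalized counts and was not tested. Lamc3, a γ chain of rarer laminins, had 137 and 146 in the MYC high and 66.3, 53.2 and 58.1 in the MYC low cells at 200 µM, and 45.8, 64.8 and 67.8 and 100.3, 88.2 and 82.9 at 10 µM. The MYC difference of Lamc3 changed sign between the media, from 1.25 (SE 0.175, adjusted p = 5.68e-08) to −0.61 (SE 0.156, adjusted p = 0.000705), with an interaction of −1.86 (SE 0.235, adjusted p = 1.3e-08). Lamc3 fell at 10 µM in MYC high cells, with a difference of −1.26 (SE 0.175, adjusted p = 4.71e-08) and rose in MYC low cells by 0.61 (SE 0.156, adjusted p = 0.00108).

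**Figure D4:**
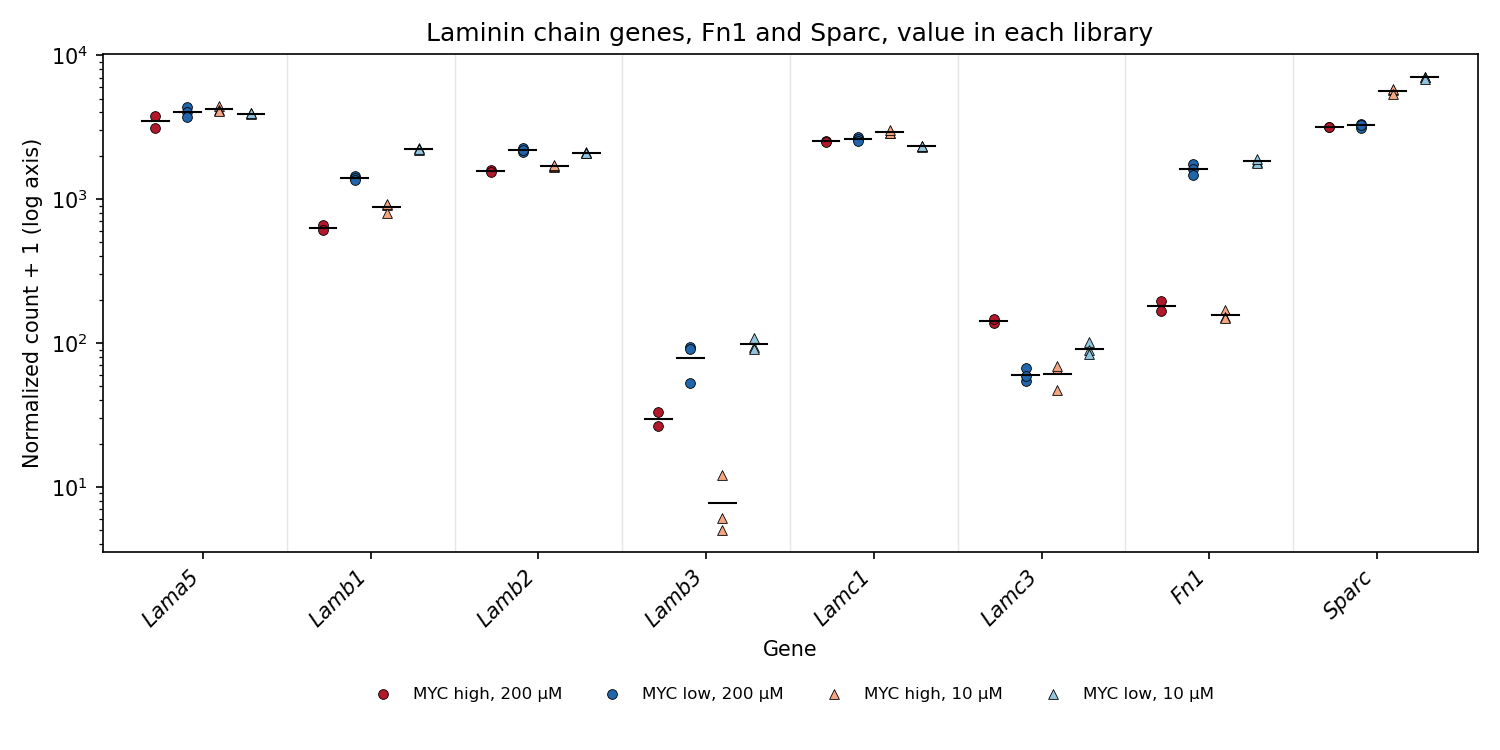
Normalized count plus 1 on a log axis for 6 laminin genes, Fn1 and Sparc in each of the 11 libraries, with symbols and colours by group as in the plot of integrin subunits and short lines at group means. Fn1 stands at 148 to 194 in the MYC high and 1471 to 1912 in MYC low libraries, Lamb3 drops to 4.05 to 11.1 in the MYC high cells at 10 µM, and Lama5 and Lamc1 differ little.

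Basement membrane collagens made up most collagen transcripts. Col4a1 and Col4a2, the 2 chains of the common type IV network, took 40.3% to 42.1% and 29.1% to 29.7% of all collagen transcripts per kb in the MYC high group at 200 µM and 33.6% to 34.5% and 22.7% to 23.1% in the MYC low cells at 10 µM. Col4a1 stood at 10018 and 10399 normalized counts in the MYC high and 14883, 14712 and 15119.8 in the MYC low cells at 200 µM. At 10 µM Col4a1 stood at 9679.8, 9976 and 9932 in the MYC high and 17423, 17979 and 18047 in the MYC low cells. In each medium the MYC low libraries exceeded the MYC high libraries, and the 10 µM libraries of MYC low cells were the highest. The difference between MYC states was −0.55 (SE 0.0302, adjusted p = 1.49e-18) and −0.85 (SE 0.0270, adjusted p = 3.56e-26) for Col4a1, and −0.51 (SE 0.0311, adjusted p = 2.97e-17) and −0.71 (SE 0.0278, adjusted p = 3.32e-23) for Col4a2, which had 6375–6542 and 9080.3–9322 at 200 µM and 6388–6653 and 10552–10609 at 10 µM. Both rose at 10 µM in MYC low cells, by 0.26 (SE 0.0270, adjusted p = 1.81e-10) and 0.20 (SE 0.0278, adjusted p = 5.98e-08), and neither was called in MYC high cells. The 2 genes lie head to head, and in the annotation their first exons overlap by 22 bases on opposite strands. The ratio of Col4a1 to Col4a2 per kb was 1.36 to 1.45 and 1.42 to 1.45 at 200 µM and 1.33 to 1.38 and 1.46 to 1.52 at 10 µM, a narrower span than that of either gene.

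Col4a5, a chain of the specialised basement membranes of kidney and lung, changed more than the common chains. Col4a5 stood at 403 and 361 normalized counts in the MYC high and 1597, 1616 and 1596 in the MYC low cells at 200 µM. At 10 µM Col4a5 stood at 2079, 2175 and 2165 in the MYC high and 2278, 2288 and 2306 in the MYC low cells. The MYC high libraries at 200 µM were far below all others, and the other groups lay apart by smaller steps. The MYC difference was −2.07 (SE 0.0461, adjusted p = 1.11e-30) at 200 µM and −0.10 (SE 0.0412, adjusted p = 0.0318) at 10 µM. The latter lost its call without replicate 1 of MYC high cells at 10 µM or any 1 replicate of MYC low cells at 10 µM (adjusted p of 0.0567 to 0.137, values of −0.10 to −0.08). Col4a5 rose at 10 µM by 2.48 (SE 0.0461, adjusted p = 1.67e-33) in the MYC high and 0.51 (SE 0.0412, adjusted p = 1.78e-13) in MYC low cells, with an interaction of 1.97 (SE 0.0618, adjusted p = 3.26e-25). Its trimer partners Col4a3, Col4a4 and Col4a6 had means of 5.17, 2.16 and 2.25 normalized counts. Relative to Col4a1 per kb, Col4a5 stood at 0.0385 to 0.0447 and 0.117 to 0.122 at 200 µM and at 0.239 to 0.242 and 0.141 to 0.145 at 10 µM.

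Col18a1 and Col15a1 are the 2 multiplexins, collagens of basement membranes whose ends are cut to endostatin-like fragments, and both were lower in MYC high cells. Col18a1 stood at 5592 and 5444 normalized counts in the MYC high and 16329, 15967 and 15809 in the MYC low cells at 200 µM. At 10 µM Col18a1 stood at 8795, 9153 and 8855 in the MYC high and 16664, 16972 and 16524 in the MYC low cells. MYC low libraries lay close in the 2 media, and MYC high libraries were lower, most of all at 200 µM. The differences of Col18a1 were −1.54 (SE 0.0304, adjusted p = 3.28e-32) at 200 µM and −0.90 (SE 0.0272, adjusted p = 7.11e-27) at 10 µM, and it rose at 10 µM in MYC high cells by 0.69 (SE 0.0304, adjusted p = 9.93e-22). In MYC low cells the response was 0.06 (SE 0.0272, adjusted p = 0.0543), and it was called with DESeq2 (adjusted p = 0.0253). Col15a1 had 0 and 1.06 in the MYC high and 6.83, 16.4 and 8.71 in the MYC low cells at 200 µM. At 10 µM Col15a1 had 7.13, 8.10 and 6.08 in the MYC high and 30.7, 33.2 and 23.8 in the MYC low cells. The MYC high libraries at 200 µM held 1 read between them, and those of MYC low cells at 10 µM were the highest. For Col15a1 the ratio of pooled reads was 19.2 (3.20 to 780.1) for MYC low over MYC high cells at 200 µM and 12.9 (2.08 to 534) for 10 over 200 µM in MYC high cells, with exact 95% counting intervals. At 10 µM its MYC difference was −1.89 (SE 0.410, adjusted p = 9.76e-05), and in MYC low cells it rose by 1.45 (SE 0.410, adjusted p = 0.00258).

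**Figure D5:**
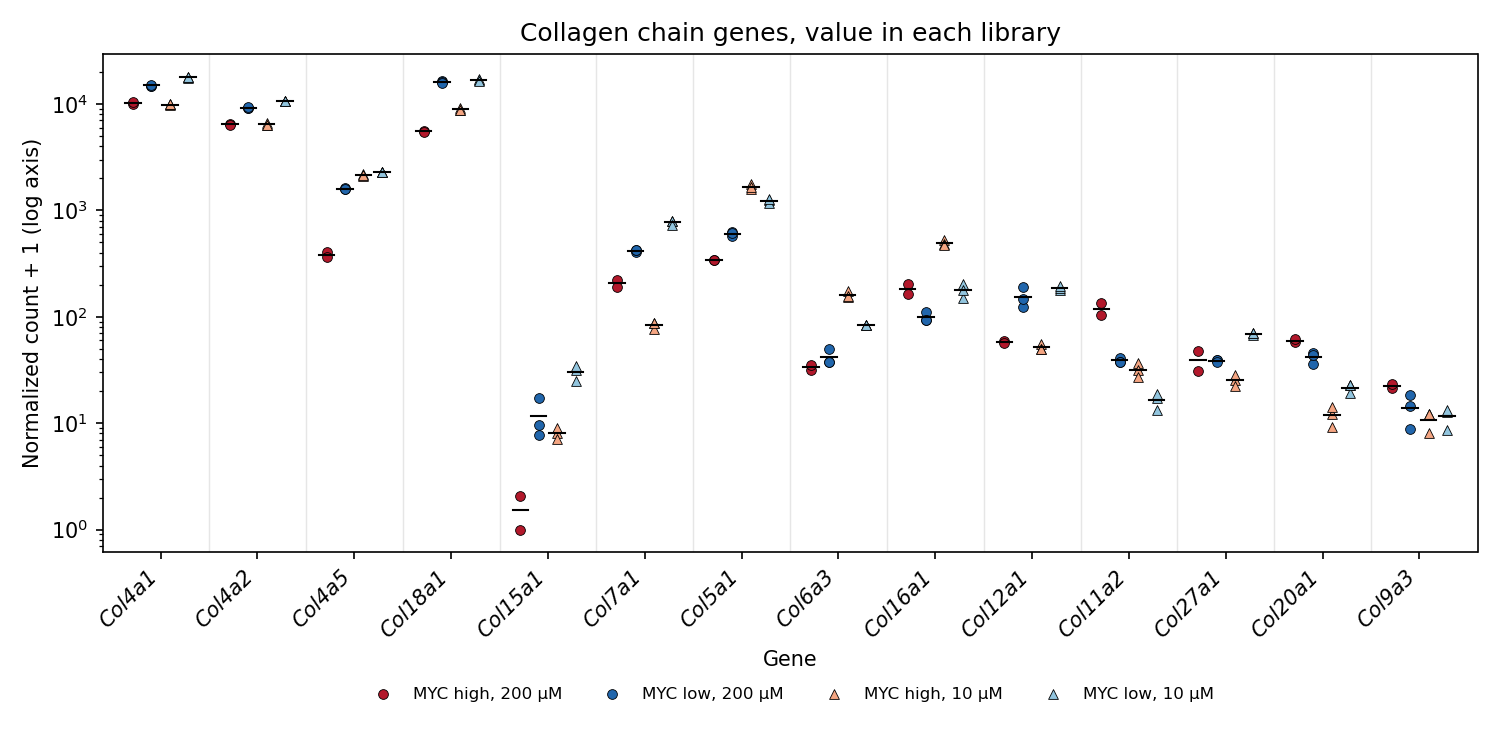
Normalized count plus 1 on a log axis for the 14 tested collagen genes in each of the 11 libraries, with symbols and colours by group as in the plot of integrin subunits and short lines at group means. Col4a1, Col4a2 and Col18a1 are the most counted and highest in the MYC low cells at 10 µM, Col5a1, Col6a3 and Col16a1 are highest in the MYC high cells at 10 µM, and Col7a1 runs from 74.9 in MYC high to 796 in the MYC low cells at 10 µM.

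Col7a1, which forms the anchoring fibrils below epithelia, responded to methionine in opposite directions in the 2 MYC states. Col7a1 stood at 222 and 188 normalized counts in the MYC high and 408, 424 and 421 in the MYC low cells at 200 µM. At 10 µM Col7a1 stood at 85.6, 74.9 and 87.1 in the MYC high and 796, 791 and 732 in the MYC low cells. All 4 groups lay apart, MYC high cells at 10 µM lowest and MYC low cells at 10 µM highest. Col7a1 fell at 10 µM, with a difference of −1.30 (SE 0.0918, adjusted p = 1.86e-15) in MYC high cells and rose by 0.89 (SE 0.0821, adjusted p = 8.1e-12) in MYC low cells, with an interaction of −2.19 (SE 0.123, adjusted p = 1.2e-17). The MYC difference was −1.03 (SE 0.0918, adjusted p = 1.31e-12) at 200 µM and −3.21 (SE 0.0821, adjusted p = 3.9e-29) at 10 µM. Col27a1, a fibrillar collagen of cartilage, had 46.8 and 29.7 normalized counts in the MYC high and 38.0, 37.9 and 36.8 in the MYC low cells at 200 µM, and 24.4, 27.3 and 21.3 and 66.9, 69.3 and 68.8 at 10 µM. The groups of Col27a1 overlapped at 200 µM and lay apart at 10 µM, where the MYC difference was −1.46 (SE 0.204, adjusted p = 6e-08). It rose at 10 µM in MYC low cells by 0.85 (SE 0.204, adjusted p = 0.000496). Its fall in MYC high cells, −0.60 (SE 0.228, adjusted p = 0.0167), was −0.28 (adjusted p = 0.359) without replicate 2 of MYC high cells at 200 µM and −0.51 (adjusted p = 0.0567) without replicate 3 of MYC high cells at 10 µM.

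Col5a1, Col6a3 and Col16a1, chains of interstitial collagens, were highest in the MYC high cells at 10 µM. Col5a1 encodes a chain that regulates fibril width, Col6a3 a chain of the beaded filaments and Col16a1 a fibril-associated collagen. Col5a1 stood at 342 and 342 normalized counts in the MYC high and 623, 571 and 612 in the MYC low cells at 200 µM. At 10 µM Col5a1 stood at 1574, 1759 and 1641 in the MYC high and 1251, 1184 and 1264 in the MYC low cells. No groups of Col5a1 overlapped, and in both MYC states the 10 µM libraries were the higher. Col5a1 rose by 2.27 (SE 0.0559, adjusted p = 1.27e-29) in the MYC high and 1.03 (SE 0.05, adjusted p = 8.89e-20) in MYC low cells, and its MYC difference changed sign, from −0.81 (SE 0.0559, adjusted p = 8.84e-16) at 200 µM to 0.43 (SE 0.05, adjusted p = 1.34e-09) at 10 µM. Col6a3 had 30.8 and 33.9 in the MYC high and 48.8, 36.8 and 36.8 in the MYC low cells at 200 µM. At 10 µM Col6a3 had 172, 153 and 157 in the MYC high and 82.3, 82.5 and 82.9 in the MYC low cells. The order of the groups of Col6a3 was the same as that of Col5a1. It rose by 2.27 (SE 0.173, adjusted p = 1.57e-14) in the MYC high and 1.01 (SE 0.155, adjusted p = 5.94e-07) in MYC low cells, with a MYC difference of −0.31 at 200 µM (adjusted p = 0.102) and 0.95 (SE 0.155, adjusted p = 1.2e-06) at 10 µM. Partner chains were few or missing, since Col5a2 had no read, Col5a3 a mean of 0.453, and Col6a1 and Col6a2 means of 3.34 and 0.804. Col16a1 had 203 and 161 in the MYC high and 110.2, 93.1 and 92.9 in the MYC low cells at 200 µM. At 10 µM Col16a1 had 522, 485 and 475 in the MYC high and 201, 149.9 and 176 in the MYC low cells. MYC high libraries of Col16a1 were above MYC low libraries in each medium, by 0.87 (SE 0.119, adjusted p = 3.1e-08) and 1.5 (SE 0.106, adjusted p = 2.48e-15). It rose at 10 µM by 1.44 (SE 0.119, adjusted p = 1.33e-13) in the MYC high and 0.82 (SE 0.106, adjusted p = 2.12e-08) in MYC low cells. Of the 2 tested fibroblast markers, Vim was also highest in that group, with group means of 15963 and 24954 normalized counts in MYC high and MYC low cells at 200 µM and 37039.6 and 33335 at 10 µM, and Tagln was lowest in it, with 13.7 and 21.5 at 200 µM and 9.14 and 37.8 at 10 µM. Lum and Dcn had no read, and the fibroblast collagens Col1a2 and Col3a1 were at 1.67 and 0. The fibroblast collagen Col1a1, which was below the filter and not tested, also had its highest mean in the MYC high cells at 10 µM. Its group means were 2.82 and 5.65 normalized counts in MYC high and MYC low cells at 200 µM and 18.6 and 6.93 at 10 µM.

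The remaining collagens had low counts. Col12a1, a fibril-associated collagen, had 55.2–58.3 and 48.6–55.0 normalized counts in the MYC high cells at 200 and 10 µM and 124–189 and 177–194 in MYC low cells. It was lower in MYC high cells, with a difference of −1.39 (SE 0.155, adjusted p = 3.93e-10) and −1.85 (SE 0.139, adjusted p = 1.3e-14), and methionine responses of −0.16 (MYC high) and 0.30 (MYC low, adjusted p = 0.0627) were not called. The response of Col12a1 in MYC low cells was called with edgeR, at 0.28 (adjusted p = 0.0294), and in a fit of the 2 groups alone (adjusted p = 0.0206), and it was 0.46 (adjusted p = 0.0085) without replicate 1 of MYC low cells at 200 µM. Col11a2 and Col20a1 fell at 10 µM in both states. Col11a2 stood at 133 and 102 normalized counts in the MYC high and 40.0, 36.8 and 36.8 in the MYC low cells at 200 µM. At 10 µM Col11a2 stood at 35.7, 30.4 and 26.3 in the MYC high and 16.3, 12.3 and 17.6 in the MYC low cells. Its groups descended without overlap from MYC high cells at 200 µM to MYC low cells at 10 µM. The fall of Col11a2 was −1.89 (SE 0.241, adjusted p = 7.64e-09) and −1.26 (SE 0.216, adjusted p = 4.54e-06), and it was higher in MYC high cells by 1.59 (SE 0.241, adjusted p = 2.81e-07) and 0.96 (SE 0.216, adjusted p = 0.000166), while its partner chain Col11a1 had no read. Col20a1 went from 57.1–60.5 to 8.15–13.2 in the MYC high and from 34.8–44.9 to 18.0–22 in MYC low cells, differences of −2.36 (SE 0.275, adjusted p = 9.35e-10) and −0.95 (SE 0.246, adjusted p = 0.0011). Between the MYC states Col20a1 was called lower in MYC high cells at 10 µM. At 200 µM its groups lay apart without a call, and edgeR called it higher in MYC high cells, at 0.51 (adjusted p = 0.028). Col9a3, a cartilage collagen chain, had 20.6–22.3 in the MYC high cells at 200 µM and 7.13–11.1 at 10 µM. In MYC low cells it had 7.74–17.4 and 7.59–12.3, and neither its response there nor its MYC differences were called. The fall of Col9a3 in MYC high cells, −1.08 (SE 0.390, adjusted p = 0.0129), lost its call without replicate 3 of MYC high cells at 200 µM, at −1.02 (adjusted p = 0.0677), and without replicate 1 of MYC high cells at 10 µM, at −0.88 (adjusted p = 0.0565).

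Fn1 differed mainly between the MYC states, and Sparc between the media. Fn1 stood at 194 and 167 normalized counts in the MYC high and 1739, 1612 and 1471 in the MYC low cells at 200 µM. At 10 µM Fn1 stood at 168, 149.9 and 148 in the MYC high and 1822, 1787 and 1912 in the MYC low cells. Fn1, the fibronectin of plasma and matrix, separated the MYC states in both media, with every MYC low library far above every MYC high library. Between MYC high and MYC low cells the difference was −3.15 (SE 0.0723, adjusted p = 2.98e-30) at 200 µM, and −3.56 (SE 0.0647, adjusted p = 8.31e-34) at 10 µM. Its methionine responses were small. That of −0.21 (SE 0.0723, adjusted p = 0.00813) in MYC high cells was −0.10 (adjusted p = 0.275) without replicate 2 of MYC high cells at 200 µM and missed the threshold with edgeR, at −0.20 (adjusted p = 0.125), and DESeq2, at −0.21 (adjusted p = 0.0988). That of 0.20 (SE 0.0647, adjusted p = 0.00839) in MYC low cells was 0.14 (adjusted p = 0.107) without replicate 3 of MYC low cells at 200 µM and 0.17 (adjusted p = 0.0545) without replicate 3 of MYC low cells at 10 µM. The Fn1 annotation shares 292 exon bases with the antisense gene Apol7d, whose mean was 0.0433 times that of Fn1. Sparc stood at 3179.7 and 3194 normalized counts in the MYC high and 3144, 3336 and 3293 in the MYC low cells at 200 µM. At 10 µM Sparc stood at 5748, 5813 and 5374 in the MYC high and 7057, 7098 and 6889.7 in the MYC low cells. Sparc, a collagen-binding glycoprotein that modulates cell adhesion, overlapped between the MYC states at 200 µM and was higher in all 10 µM libraries. It rose by 0.82 (SE 0.0364, adjusted p = 1.34e-21) in the MYC high and 1.11 (SE 0.0325, adjusted p = 1.63e-26) in MYC low cells. The MYC difference of Sparc was −0.03 (SE 0.0364, adjusted p = 0.443) at 200 µM and −0.31 (SE 0.0325, adjusted p = 6.75e-11) at 10 µM.

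Itgb1bp1 and Itgb3bp were tested with the family by name. Itgb1bp1, which encodes a protein that binds the β1 tail and competes with talin, had 595 and 642 normalized counts in the MYC high group at 200 µM, and 388–426, 358–367 and 342–389 in the MYC low cells at 200 µM and in the MYC high and MYC low cells at 10 µM. MYC high cells at 200 µM stood apart, with a MYC difference of 0.61 (SE 0.0741, adjusted p = 2.68e-09) and a methionine response of −0.76 (SE 0.0741, adjusted p = 1.07e-11). The response of MYC low cells, −0.16 (SE 0.0663, adjusted p = 0.0369), lost its call without any 1 of 4 libraries, replicates 1 and 3 of MYC low cells at 200 µM and replicates 2 and 3 of those at 10 µM (adjusted p of 0.0589 to 0.174). That response also lost its call with DESeq2 (adjusted p = 0.102), with library total scaling (adjusted p = 0.0663) and without the filter (adjusted p = 0.0545). Itgb3bp stood at 151 and 165 normalized counts in the MYC high and 183, 185 and 177 in the MYC low cells at 200 µM. At 10 µM Itgb3bp stood at 669, 651 and 619.7 in the MYC high and 231, 263 and 249 in the MYC low cells. Itgb3bp, known as a kinetochore protein as well as for binding the β3 tail, was highest in the MYC high cells at 10 µM. It rose by 2.03 (SE 0.0886, adjusted p = 1.03e-21) in the MYC high and 0.44 (SE 0.0793, adjusted p = 9.98e-06) in MYC low cells. Its MYC difference of −0.20 (SE 0.0886, adjusted p = 0.0395) at 200 µM lost its call without replicate 2 of MYC high cells or replicate 1 or 2 of MYC low cells at 200 µM (adjusted p of 0.0694 to 0.267) and with edgeR and DESeq2 (adjusted p = 0.0786 and 0.172). Exons of both genes overlap antisense genes, those of Itgb3bp with Pgm1, whose mean count was 4.89 times as high, and those of Itgb1bp1 with Cpsf3 and Asap2, at 2.22 and 0.894 times.

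The genes around these families were taken as 4 lists, and the share of all tested genes called in each direction is given beside each count. Of 40 other matrix glycoproteins and proteoglycans 33 were detected and 17 tested. In MYC high cells 15 were lower and 1 higher at 200 µM (median −1.46), against 37.6% lower and 36.8% higher over all genes, and 13 were lower and 2 higher at 10 µM (median −1.41), against 35.8% and 35.7% over all genes. At 10 µM methionine 11 rose and 5 fell in MYC high cells (median 0.81), against 37.9% each over all genes, and 13 rose and 1 fell in MYC low cells (median 0.51), against 29.4% and 29.9% over all genes. Thbs1, the thrombospondin that activates TGF-β, had 249–316 normalized counts in the MYC high and 7243–7679 in the MYC low cells at 10 µM, a difference of −4.76 (SE 0.0669, adjusted p = 2.68e-37), and rose in MYC low cells by 2.01 (SE 0.0669, adjusted p = 8.05e-25). Spp1, which encodes osteopontin, a ligand of αvβ3, had 3928–3965 in the MYC high and 16625–17229 in the MYC low cells at 200 µM, a difference of −2.10 (SE 0.0296, adjusted p = 1.22e-36). Dag1, the laminin receptor dystroglycan, rose at 10 µM in MYC high cells, from 1995–2092 to 4895–5293, by 1.30 (SE 0.0375, adjusted p = 2.1e-27).

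Of 40 integrin adaptors and signalling genes 39 were detected and 37 tested. In MYC high cells 22 were lower and 9 higher at 200 µM (median −0.18), against 37.6% lower and 36.8% higher over all genes, and 27 were lower and 4 higher at 10 µM (median −0.56), against 35.8% and 35.7% over all genes. At 10 µM 17 rose and 10 fell in MYC high cells (median 0.07), against 37.9% each over all genes, and 25 rose and 7 fell in MYC low cells (median 0.24), against 29.4% and 29.9% over all genes. Tns1, the tensin of fibrillar adhesions, stood at 4.24–5.71 in the MYC high and 462–562 in the MYC low cells at 200 µM, a difference of −6.39 (SE 0.121, adjusted p = 1.01e-32). Its MYC high values lie near 3 reads, which equal 3.18 and 3.43 normalized counts in those libraries, so the size of this difference is imprecise. Actn1, an actin cross-linker of adhesions, had 2093–2258 in the MYC high and 6889.7–6985 in the MYC low cells at 10 µM, a difference of −1.66 (SE 0.0327, adjusted p = 1.13e-32). Zyx, zyxin, fell at 10 µM in MYC high cells from 2897–2910.0 to 1060.5–1093, with a difference of −1.43 (SE 0.0402, adjusted p = 9.98e-28). Vcl, vinculin, rose in MYC low cells from 1846–1895 to 3313–3531, by 0.88 (SE 0.0383, adjusted p = 4.08e-21).

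Of 37 matrix proteases and their inhibitors 34 were detected and 23 tested, of which 19 were lower in the MYC high cells at 200 µM and 4 were not called (median −1.03), against 37.6% lower and 36.8% higher over all genes, and 15 lower and 3 higher at 10 µM (median −0.50), against 35.8% and 35.7% over all genes. At 10 µM 11 rose and 8 fell in MYC high cells (median 0.07), against 37.9% each over all genes, and 12 rose and 8 fell in MYC low cells (median 0.22), against 29.4% and 29.9% over all genes. Timp2, an inhibitor of matrix metalloproteases, had 738–771 in the MYC high and 4357–4445 in the MYC low cells at 200 µM, and its differences were −2.54 (SE 0.0439, adjusted p = 5.77e-34) and, at 10 µM, −2.59 (SE 0.0393, adjusted p = 2.96e-36). Htra1, a secreted serine protease, fell in MYC high cells from 8024–8399.9 to 2233–2465, with a difference of −1.83 (SE 0.0354, adjusted p = 6.66e-33). Of 34 genes of collagen and matrix maturation 28 were detected and 22 tested. In MYC high cells 12 were lower and 5 higher at 200 µM (median −0.32), against 37.6% lower and 36.8% higher over all genes, and 8 lower and 8 higher at 10 µM (median 0.01), against 35.8% and 35.7% over all genes. At 10 µM 11 rose and 5 fell in MYC high cells (median 0.20), against 37.9% each over all genes, and 8 rose and 4 fell in MYC low cells (median 0.13), against 29.4% and 29.9% over all genes. P4ha1, the catalytic subunit of collagen prolyl hydroxylase, rose in MYC high cells from 599–624 to 1755–1839.7, by 1.56 (SE 0.0534, adjusted p = 4.92e-25). P4hb, its other subunit, rose in MYC low cells from 8977–9104 to 12246–12369.8, by 0.45 (SE 0.0290, adjusted p = 5.24e-16). Tgm2, a transglutaminase that cross-links fibronectin and other matrix proteins, had 5266–5394 in the MYC high and 11053–11267 in the MYC low cells at 200 µM, and it was lower in MYC high cells, with a difference of −1.06 (SE 0.0318, adjusted p = 9.48e-27) at 200 µM and −1.37 (SE 0.0284, adjusted p = 5.45e-32) at 10 µM.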

How the data were processed

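The 11 libraries hold polyadenylated RNA, extracted with a Qiagen kit and prepared with NEBNext Ultra II reagents, per the labels' protocols. The authors deposited a table of signal values, called normalized counts in the labels. DESeq2, HTSeq, SAMtools, STAR, fastp, FastQC and the build GRCm39 are listed in the submitters' processing notes, and the sources used here give no version, annotation or strand setting. All values were whole multiples of 1 step per library (100% within 0.001), the inverse of a median-of-ratios size factor of 0.875 to 1.13, so whole reads were recovered. A count of 3 reads, the upper 95% limit of 0 reads, equals 2.65 to 3.43 normalized counts, and such limits and intervals cover counting error only.

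Symbols and merged exon lengths came from GENCODE M21 (GRCm38), with a symbol for 52083 of 55416 identifiers and a length for all 87 members. Letters after Itga and Itgb were read in either case. Genes with a mean of at least 10 were tested in R 4.3.3 with limma 3.58.1 on log2 of the deposited signal plus 1, with 1 mean per group over all libraries, a trend and 7 residual and 29.0 prior degrees of freedom. The pooled spread assumes that the groups vary alike. All members may be named. Of the 4 surrounding lists, written from general knowledge, the gene with the smallest adjusted p in each comparison of 2 groups is named. Results on 3 genes are not reported here, though counts include them. The members and lists were chosen with earlier results of these data known. The fit was also run on simulated counts, whose spread between libraries was set in advance and not taken from these data. No result here rests on that run. Alternatives were other pseudocounts (0.5 and 10), filters, TMM and library total scaling, no trend, a replicate block, the 2 groups alone, edgeR 4.0.16 and DESeq2 1.42.0 on recovered reads, and each library left out.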

Additional observations from a re-analysis of the deposited data

Results flagged for a closer look

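The response to low methionine differed between MYC high and MYC low cells for 29 of the 37 tested members, by the interaction term of limma at an adjusted p under 0.05, where 60.4% of all tested genes pass. Values are the response of MYC high cells minus that of MYC low cells in log2. Positive differences among collagens were those of Col4a5 (1.97), Col6a3 (1.26), Col5a1 (1.24), Col18a1 (0.63) and Col16a1 (0.62), and negative ones those of Col7a1 (−2.19), Col27a1 (−1.45), Col20a1 (−1.41), Col4a1 (−0.31) and Col4a2 (−0.20). Among integrins they were positive for Itgb3 (1.64), Itga7 (1.56), Itgb7 (0.63), Itgb5 (0.28) and Itga6 (0.28) and negative for Itgb6 (−1.06), Itgb1 (−0.21) and Itgav (−0.14). Laminin chains gave Lamc1 (0.40), Lama5 (0.33) and Lamb2 (0.19) on the positive side and Lamb3 (−2.39), Lamc3 (−1.86) and Lamb1 (−0.19) on the negative side. The matrix glycoproteins gave Fn1 (−0.41) and Sparc (−0.28), and the genes matched by name Itgb3bp (1.59) and Itgb1bp1 (−0.60).

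Col7a1, Col27a1, Lamc3, Lamc1 and Fn1 were called in opposite directions in the 2 MYC states, and Itga7 fell in MYC low cells with no call in MYC high cells. Both calls of Fn1 and the fall of Col27a1 in MYC high cells were lost under some alternatives. The interaction of Itgb6 was −1.69 without replicate 3 of MYC high cells at 200 µM, −0.44 (adjusted p = 0.34) without replicate 2 of that group and −0.81 (adjusted p = 0.0776) without replicate 3 of MYC low cells at 200 µM. It also lost its call with edgeR (adjusted p = 0.0948), with DESeq2 (adjusted p = 0.0767), without the trend (adjusted p = 0.0925) and without the filter (adjusted p = 0.0929). That of Lamb1 lost its call without replicate 2 of MYC high cells or replicate 3 of MYC low cells at 200 µM or replicate 2 of MYC high cells at 10 µM (adjusted p of 0.0592 to 0.187), and without the trend (adjusted p = 0.111). Every interaction rests on only 2 libraries in the MYC high group at 200 µM.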

How the results depend on the processing

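The 185 member results were recomputed under 22 alternatives, except that the filter at a mean of 50 kept 150 of them and the fit of the 2 groups alone gives no interaction. None of the called results changed sign in the alternatives run for it. Results without a call were not checked for a change of sign. Of the 185, 158 kept the same call status under every alternative run and 27 lost or gained a call under at least 1. Without the trend, calls were lost for the responses of Fn1 in MYC high (adjusted p = 0.0618) and MYC low cells (0.0682) and Itga5 in MYC low cells (0.12), and for the MYC differences of Col4a5 (0.075) and Lama5 (0.259) at 10 µM. The counts of members called stayed within 1.5 times. Members lower in MYC high cells numbered 22 to 27 (from 24) at 200 µM and 20 to 25 (from 24) at 10 µM, and members higher 5 to 8 (from 6) and 9 to 10 (from 10). Rises at 10 µM numbered 15 to 21 (from 17) in MYC high and 15 to 22 (from 18) in MYC low cells, and falls 9 to 13 (from 13) and 7 to 9 (from 9). Interactions called numbered 14 to 15 (from 14) positive and 12 to 16 (from 15) negative. Scaling by library totals, chosen after the data were seen, gave calls at 200 µM to Sparc, at −0.12 (adjusted p = 0.00365), Lamc1, at −0.14 (adjusted p = 0.00105), and Col6a3, at −0.40 (adjusted p = 0.0378). Over all 12909 genes, edgeR on the recovered reads called 4720 higher and 4863 lower in MYC high cells at 200 µM and 4770 and 4616 at 10 µM, and it called 4951 rises and 4767 falls at 10 µM in MYC high and 3947 and 3968 in MYC low cells. Replicates that share a number showed no visible shared deviation: over 15 pairs the correlation of deviations was −0.0490 to 0.0257. Over 30 pairs with different numbers it was −0.0464 to 0.0490. Deviations of libraries within such small groups are tied to each other, so these values cannot show whether the numbers pair the samples. With a replicate block, 1 interaction call was lost and 1 gained, that of Col12a1, at −0.52 (adjusted p = 0.032). Low counts limit Col15a1, Itgb2 and Itgb6 in MYC high cells at 200 µM.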
